A study of Homo sapiens with 12 samples.

Results

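RGS4 was present at 59.5 to 71.5 CPM (read counts scaled to library size) in MV3 melanoma cells kept in fresh medium and at 0.127 to 1.44 CPM in cells kept in medium conditioned by macrophages. RGS4 encodes a regulator of G protein signalling, and it is described here beside 9 relatives: RGS2, RGS3, RGS5, RGS7, RGS10, RGS12, RGS16, RGS17 and RGS20. None of the relatives differed from fresh medium by more than 1.23 on the log2 scale where it could be fitted, while RGS4 differed by -8.27, -6.38 and -5.76 in M1, M2 and M0 medium. The 10 gene names matched 11 of 58288 gene identifiers in the deposited count table, because RGS5 stands for 2 identifiers. RGS4 was chosen for its low level in every conditioned medium against fresh medium, so the values of these 10 genes against fresh medium are a description, with no p-value; the other genes of the pathway were tested against fresh medium too. Comparisons among the 3 conditioned media are not part of that rule and were tested. They use the same conditioned libraries, and the genes were chosen with earlier results of these data known.

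MV3 is an established human melanoma line from a lymph node metastasis, and all 12 libraries came from it. Cells grown in DMEM with 10% serum were held for 3 h in RPMI with 1% serum, and the medium was then exchanged for 24 h. M1 medium came from THP-1 monocytic cells that had been turned into macrophages with the phorbol ester PMA and then polarized with LPS and IFNγ. M2 medium came from PMA-treated THP-1 cells polarized with IL4 and IL13, and M0 medium from THP-1 cells given PMA alone. Fresh, unconditioned RPMI served as Ctrl. Each group had 3 libraries. The M0, M1 and M2 groups share exposure to products of a tumour-derived monocytic line, so a comparison with Ctrl includes conditioning itself, and stimulants carried over in the media were not measured.

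RGS proteins end signalling by heterotrimeric G proteins: their RGS domain speeds the hydrolysis of GTP by the alpha subunit, which returns it to its resting state. The family is divided by sequence into small proteins of the R4 group (RGS2, RGS3, RGS4, RGS5 and RGS16), the R7 group that pairs with the beta subunit GNB5 (RGS7), the R12 group (RGS10 and RGS12) and the RZ group (RGS17 and RGS20). R4 members act mainly on alpha subunits of the Gi and Gq classes, so they dampen receptors for chemokines, lysophospholipids, thrombin and kinins. RGS4, RGS5 and RGS16 proteins are also short-lived, because an exposed cysteine at their start marks them for degradation. RNA levels as measured here do not show protein levels.

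RGS4 and RGS5 are neighbours on chromosome 1. On GRCh38, RGS4 lies at chr1:163068775-163076802 on the plus strand and RGS5 at chr1:163111121-163321791 on the minus strand, 34.3 kb apart. RGS2, RGS7 and RGS16 lie elsewhere on chromosome 1, so 5 of the 10 genes are on that chromosome. The sequences below, from RefSeq on GRCh38.p14, show the start regions of the gene that was low in every conditioned medium, of its neighbour and of the relative with the highest level per length. Each runs 5′ to 3′ along the gene, with 250 bases before and 50 after the annotated start, and capitals mark a TATA box (TATAAA) or a GC box (GGGCGG, or CCGCCC where it lies on the other strand). RGS4 has 4 annotated starts in the table, of which the first (chr1:163068621-163068920, plus strand) and the third (chr1:163069111-163069410, plus strand) are shown. RGS5 is shown for chr1:163321686-163321985 and RGS10 for chr10:119542670-119542969, both on the minus strand.
RGS4 start 1: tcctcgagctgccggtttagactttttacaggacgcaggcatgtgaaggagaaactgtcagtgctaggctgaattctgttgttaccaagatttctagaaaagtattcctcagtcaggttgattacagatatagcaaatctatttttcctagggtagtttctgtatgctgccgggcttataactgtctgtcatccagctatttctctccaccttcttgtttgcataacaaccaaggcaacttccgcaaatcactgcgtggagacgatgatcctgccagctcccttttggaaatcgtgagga
RGS4 start 3: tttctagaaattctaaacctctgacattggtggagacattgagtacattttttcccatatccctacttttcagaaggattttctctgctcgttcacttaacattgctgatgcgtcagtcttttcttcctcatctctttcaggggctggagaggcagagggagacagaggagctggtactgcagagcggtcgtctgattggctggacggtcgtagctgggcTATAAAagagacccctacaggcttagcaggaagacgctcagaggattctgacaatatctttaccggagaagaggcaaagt
RGS5 start 1: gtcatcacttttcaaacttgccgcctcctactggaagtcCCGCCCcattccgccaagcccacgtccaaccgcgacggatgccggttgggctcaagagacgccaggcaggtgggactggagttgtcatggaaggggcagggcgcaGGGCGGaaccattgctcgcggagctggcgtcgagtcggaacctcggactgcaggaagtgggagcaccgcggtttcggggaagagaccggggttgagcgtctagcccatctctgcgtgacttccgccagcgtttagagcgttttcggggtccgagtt
RGS10 start 1: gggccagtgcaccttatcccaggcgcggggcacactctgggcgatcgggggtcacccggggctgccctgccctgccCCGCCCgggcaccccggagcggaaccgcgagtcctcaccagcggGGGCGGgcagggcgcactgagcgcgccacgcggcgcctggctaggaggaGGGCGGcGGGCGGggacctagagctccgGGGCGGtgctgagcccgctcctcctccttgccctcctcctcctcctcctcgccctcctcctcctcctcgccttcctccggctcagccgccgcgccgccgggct
The 4 RGS4 windows held 8, 4, 8 and 2 CG dinucleotides, against a median of 14 over 35116 promoter windows of 300 bases. The RGS5 and RGS10 windows printed here held 28 and 33. A TATA box stood in the third RGS4 window and in 11.5% of all windows, and the GC box, which occurred 2 times in the RGS5 window and 5 times in the RGS10 window, in 45% of all windows. On either strand, the 4 RGS4 windows held no GC box, no AP-1 site (TGANTCA, in 7.71% of all windows), no cAMP response element (TGACGTCA, 1.85%), no decamer NF-kB site (0.191%) and no ATF4 and CEBP composite (TGATGNAA, 3.62%). That says only that these letters are not in these windows. Windows were read for 9 of the 10 names, 25 in all. RGS20 was left out of this step, so its start region was not examined.

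Library totals ran from 21788397 to 42921242 counts, so the 3 counts that a count of 0 allows correspond to 0.0699 to 0.138 CPM. In M2 replicate 2, 3759 genes had reads that were at 0 everywhere else (160 to 453 such genes in each of the remaining libraries), and M0 replicate 3 stood apart from the other M0 libraries on the third principal component. Both were kept. The cells had little melanocytic expression: MITF was the 1 of 8 melanocytic markers that passed the low-count filter, with TYR and S100B at 0 reads in all libraries. Of 9 markers of dedifferentiated melanoma 8 passed and NGFR did not. AXL stood at 1254, 1792, 2126 and 2444 CPM in M1, M2, M0 and Ctrl, and FN1 at 6381, 4643, 3905 and 3251 CPM. AXL, SOX9, S100A4, CSPG4 and MCAM averaged highest in Ctrl, while FN1, VIM and EGFR averaged lowest there. The 14 leukocyte markers summed to 0.938 to 1.26 CPM in M1, 0.858 to 1.35 CPM in M2, 1.08 to 1.30 CPM in M0 and 1.47 to 1.75 CPM in Ctrl, with CD33 the only one to pass the filter and AIF1 at 0 reads throughout.

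RGS4 itself had 5, 5 and 12 reads in the M1 libraries, 30, 18 and 24 in the M2 libraries, 35, 19 and 41 in the M0 libraries and 3131, 1870 and 1902 in the Ctrl libraries. Scaled for library size, that was 0.127, 0.160 and 0.327 CPM in M1, 0.814, 0.639 and 0.858 CPM in M2, 1.18, 0.885 and 1.44 CPM in M0 and 71.5, 62.6 and 59.5 CPM in Ctrl. The 9 conditioned libraries lay far below all 3 Ctrl libraries, and the M1 libraries lay below all M2 and M0 libraries. A lack of overlap alone was common over all tested genes. Against Ctrl it held for 71.3% of them in M1, 71.5% in M2 and 64.4% in M0. Between media it held for 59.2% in M1 against M0, 46.5% in M2 against M0 and 50.1% in M1 against M2. Group means were 0.205 ± 0.108 CPM in M1, 0.770 ± 0.116 CPM in M2, 1.17 ± 0.277 CPM in M0 and 64.5 ± 6.23 CPM in Ctrl (SD, n = 3 each). These are bulk cultures, so fewer cells with RGS4 RNA and less RGS4 RNA per cell cannot be told apart.

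**Figure D1:**
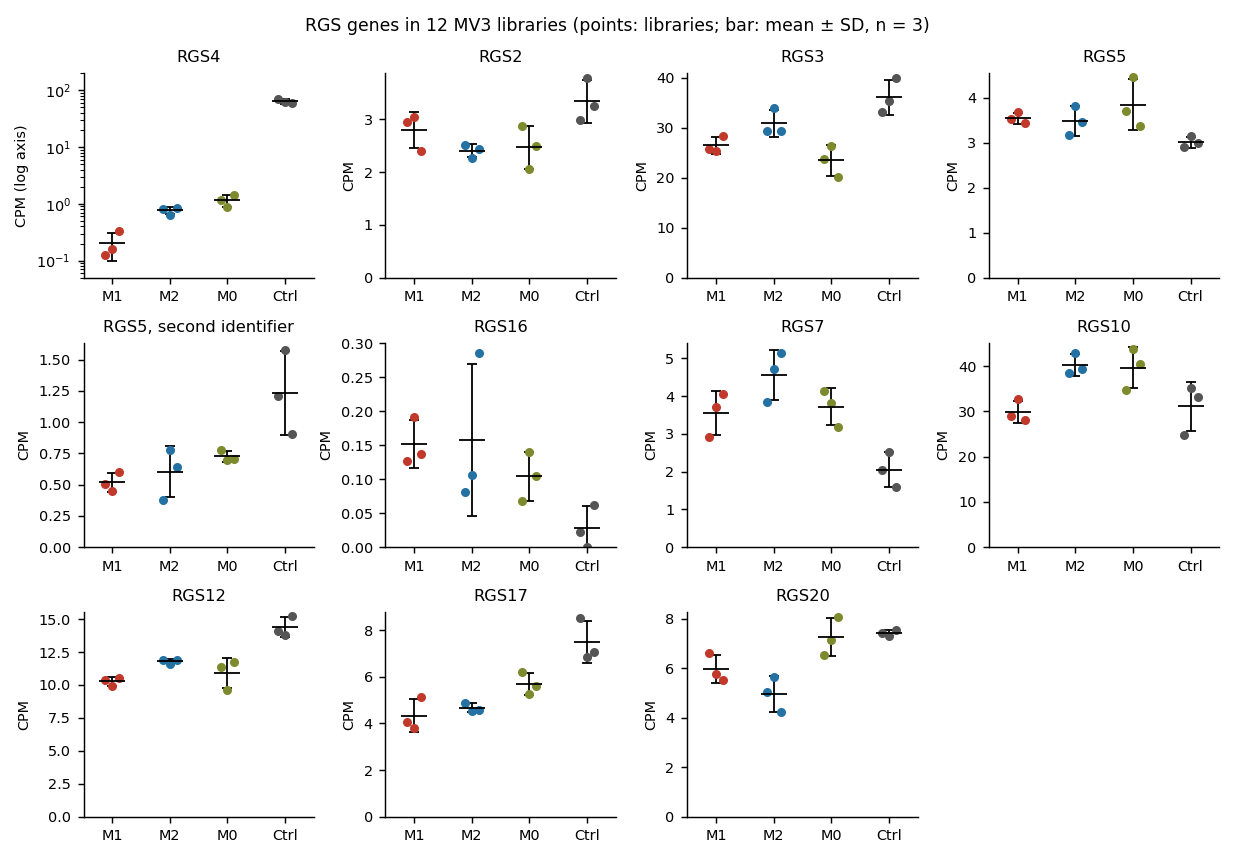
Levels of the RGS genes in the 12 libraries, in CPM by medium, with 1 point per library and bars for mean ± SD (n = 3). The RGS4 panel has a log axis and shows M1 at 0.127 to 0.327 CPM, M2 at 0.639 to 0.858 CPM, M0 at 0.885 to 1.44 CPM and Ctrl at 59.5 to 71.5 CPM. The other panels start at 0, and no other gene spans a range of that size.

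Against Ctrl, the log2 fold change of RGS4 was -8.27 (SE 0.33) in M1, -6.38 (SE 0.14) in M2 and -5.76 (SE 0.21) in M0. On the linear scale RGS4 was 309-fold lower in M1, 83.1-fold lower in M2 and 54.2-fold lower in M0. Among 14088 genes that passed the low-count filter, RGS4 had the lowest log2 fold change in each of these comparisons. All 3 comparisons use the same Ctrl libraries, so they are not independent of one another. The M1 value rests on 22 reads and was -8.79 without M1 replicate 3, which held 12 of them, and -7.98 without M1 replicate 1.

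**Figure D2:**
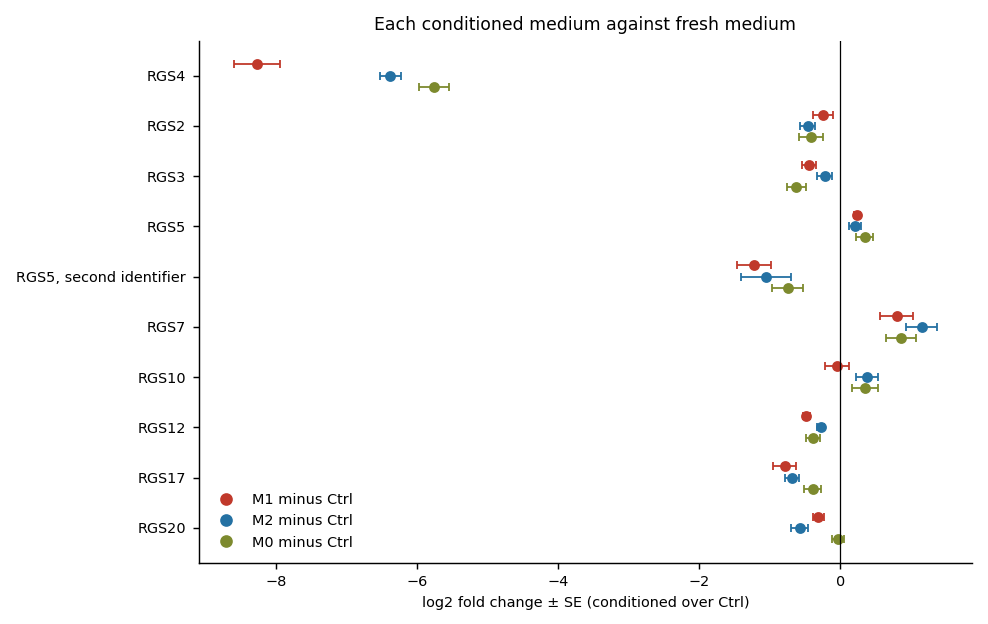
Log2 fold change (± SE) of 10 RGS identifiers in M1, M2 and M0 medium over Ctrl. RGS4 lies at -8.27, -6.38 and -5.76, and the other identifiers lie between -1.23 and 1.15.

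The change in rank within the family was read from levels per length, in CPM per kb of annotated exon. In M1, RGS4 was last of 11 identifiers at 0.0423 ± 0.0222 CPM per kb and overlapped RGS16 (0.0625 ± 0.0145). In M2 it was the tenth at 0.159 ± 0.0240, overlapping the second RGS5 identifier (0.166 ± 0.0562), and in M0 the ninth at 0.241 ± 0.0572, overlapping that identifier (0.200 ± 0.0122). In Ctrl it was the second at 13.3 ± 1.29 CPM per kb, with every library below RGS10 (24.8 ± 4.36) and above RGS3 (2.61 ± 0.252). RGS4 made up 0.0828 to 0.218% of the summed per-length level of the family in M1, 0.301 to 0.439% in M2, 0.416 to 0.721% in M0 and 25.1 to 33.3% in Ctrl. The summed level of the other identifiers was 31.0 to 34.5 CPM per kb in M1, 39.2 to 43.7 in M2, 36.9 to 43.8 in M0 and 29.7 to 38.4 in Ctrl, so the M1 range lay within that of Ctrl and the M2 range above it.

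Per kb of exon, RGS10 was first in every medium, at 23.9 ± 1.95 CPM per kb in M1, 32.1 ± 1.92 in M2, 31.7 ± 3.63 in M0 and 24.8 ± 4.36 in Ctrl. Behind it in the M1 libraries came RGS3 and RGS20, which overlapped at 1.92 and 1.87 CPM per kb, then RGS7 and RGS2, which overlapped at 1.38 and 1.33. In M2 the order was RGS3 (2.24 CPM per kb), RGS7 (1.78) and RGS20 (1.55), of which RGS7 and RGS20 overlapped. M0 placed RGS20 (2.27) above RGS3 (1.70), RGS7 (1.44) and RGS2 (1.18), where RGS3 overlapped RGS7 and RGS7 overlapped RGS2. In Ctrl, RGS20 (2.32) and RGS2 (1.60) followed RGS3 without overlap, and RGS12 (1.05), RGS17 (0.947) and RGS7 (0.798) overlapped in turn. In M1, M2 and M0 the places above the second RGS5 identifier and RGS4 were held by RGS12 (0.747, 0.859 and 0.792 CPM per kb), RGS17 (0.548, 0.591 and 0.721) and RGS5 (0.520, 0.512 and 0.564). Exon length here is the union of all annotated transcripts, which understates the level of genes with many long isoforms such as RGS3 and RGS12. The union is 4836 bases for RGS4 and 1252 for RGS10. Without division by length, RGS4 (64.5 CPM) stood above RGS3 (36.1 CPM) and RGS10 (31.1 CPM) in Ctrl. The rank of RGS4 and its share of the family in Ctrl therefore depend on the lengths used.

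**Figure D3:**
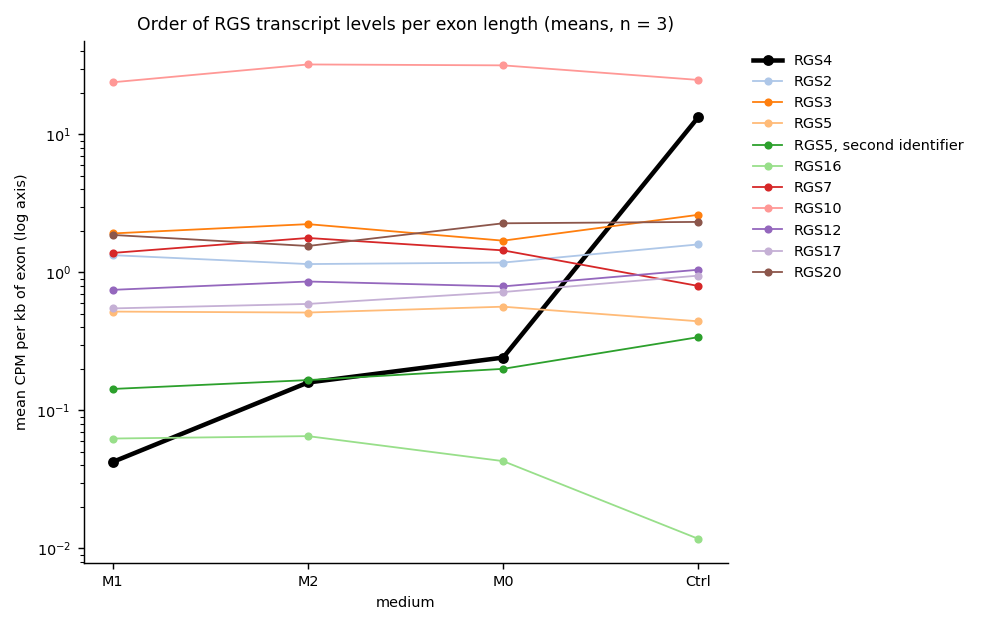
Mean level of each RGS identifier per kb of exon (CPM per kb, log axis, n = 3) in M1, M2, M0 and Ctrl medium; lines join the same gene and carry no time or dose. RGS4 (black) lies at 0.0423, 0.159 and 0.241 in M1, M2 and M0 and at 13.3 in Ctrl, crossing most of the family, while RGS10 stays on top at 23.9 to 32.1.

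Of the other R4 genes, RGS2, which acts mainly on Gq alpha subunits, was a low transcript. It had 2.94, 3.04 and 2.40 CPM in M1, 2.52, 2.27 and 2.43 CPM in M2, 2.87, 2.05 and 2.49 CPM in M0 and 2.99, 3.79 and 3.25 CPM in Ctrl. The M2 and M0 libraries lay below all Ctrl libraries (log2 -0.46, SE 0.11, and -0.42, SE 0.17), and the M1 libraries overlapped Ctrl (-0.25, SE 0.14). RGS3, which acts on Gi and Gq alpha subunits, was the next most abundant R4 member after RGS4 in Ctrl. RGS3 had 25.7, 25.3 and 28.3 CPM in M1, 29.4, 34.0 and 29.2 CPM in M2, 23.8, 26.3 and 20.2 CPM in M0 and 33.0, 35.3 and 39.9 CPM in Ctrl. All M1 and M0 libraries lay below Ctrl (log2 -0.45, SE 0.09, and -0.62, SE 0.14), and M2 overlapped it (-0.22, SE 0.11).

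RGS5, the neighbour of RGS4 and best known as a gene of pericytes, did not share the low level in conditioned medium. It had 3.53, 3.68 and 3.44 CPM in M1, 3.17, 3.83 and 3.47 CPM in M2, 3.71, 4.47 and 3.37 CPM in M0 and 2.90, 3.15 and 3.00 CPM in Ctrl. Each conditioned library lay above every Ctrl library, with log2 values of 0.24 (SE 0.04) in M1, 0.21 (SE 0.08) in M2 and 0.34 (SE 0.12) in M0. By the edgeR call used for all genes, RGS5 was called higher in M0 and not called in M1 or M2. The second RGS5 identifier, at chr1:163244505-163321894, is annotated as an antisense-type transcript of NUF2 and lay the other way. It averaged 0.518 ± 0.0766 CPM in M1, 0.601 ± 0.204 CPM in M2, 0.725 ± 0.0441 CPM in M0 and 1.23 ± 0.334 CPM in Ctrl, or log2 -1.23 (SE 0.24), -1.06 (SE 0.35) and -0.75 (SE 0.22) against Ctrl. Its exons overlap those of NUF2, a kinetochore gene on the opposite strand with 26.8, 29.4, 51.2 and 110 CPM in M1, M2, M0 and Ctrl, and also exons of the coding RGS5 gene. The strand setting of the counting is not known, so the part of NUF2 reads in the second identifier was not tested. The shared exons lie on the same strand, which leaves the division of reads between the RGS5 identifiers uncertain under any setting.

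RGS16, a small R4 member that acts on Gi and Gq alpha subunits, was near the floor and did not pass the low-count filter. It had 5, 6 and 5 reads in M1, 3, 3 and 8 reads in M2, 2, 3 and 3 reads in M0 and 1, 0 and 2 reads in Ctrl. The ratio of summed reads, scaled for library size, was 4.96 for M1 over Ctrl with an exact 95% interval of 1.42 to 26.5, and 5.16 for M2 over Ctrl (1.44 to 28.0). For M0 over Ctrl it was 3.36, with an interval of 0.807 to 19.7 that includes no difference. These intervals cover counting error only.

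RGS7, the R7 member, had the largest positive log2 value of the fitted relatives. It had 2.92, 3.71 and 4.06 CPM in M1, 3.85, 4.72 and 5.15 CPM in M2, 4.15, 3.82 and 3.19 CPM in M0 and 2.06, 2.51 and 1.60 CPM in Ctrl. All conditioned libraries lay above all Ctrl libraries, with log2 values of 0.79 (SE 0.23) in M1, 1.15 (SE 0.22) in M2 and 0.86 (SE 0.21) in M0. RGS7 overlaps AL365184.1 on the opposite strand, and reads of the pair cannot be told apart here.

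In the R12 group, RGS10, a compact protein with little besides the RGS domain, had 29.04, 32.6 and 28.0 CPM in M1, 38.4, 43.0 and 39.3 CPM in M2, 34.8, 43.8 and 40.4 CPM in M0 and 24.9, 35.1 and 33.3 CPM in Ctrl. The M1 libraries overlapped Ctrl (log2 -0.05, SE 0.17) and lay below all M2 and M0 libraries, while M2 lay above Ctrl (0.38, SE 0.16) and M0 overlapped it at its lowest library (0.35, SE 0.18). RGS12, a much larger protein that also carries a GoLoco motif, had 10.4, 9.89 and 10.6 CPM in M1, 11.9, 11.6 and 11.9 CPM in M2, 11.3, 9.59 and 11.7 CPM in M0 and 14.1, 13.8 and 15.2 CPM in Ctrl. All 9 conditioned libraries lay below Ctrl, with log2 values of -0.48 (SE 0.05) in M1, -0.28 (SE 0.04) in M2 and -0.40 (SE 0.10) in M0.

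The RZ genes, RGS17 on chromosome 6 and RGS20 on chromosome 8, encode regulators with a preference for the alpha subunit Gz. RGS17 had 4.06, 3.81 and 5.13 CPM in M1, 4.88, 4.54 and 4.58 CPM in M2, 6.21, 5.26 and 5.61 CPM in M0 and 8.52, 6.87 and 7.07 CPM in Ctrl. Every conditioned library lay below every Ctrl library (log2 -0.79, SE 0.16, in M1, -0.68, SE 0.10, in M2 and -0.40, SE 0.12, in M0). RGS20 had 6.59, 5.76 and 5.54 CPM in M1, 5.02, 5.64 and 4.22 CPM in M2, 6.55, 7.12 and 8.06 CPM in M0 and 7.40, 7.30 and 7.54 CPM in Ctrl. M0 overlapped Ctrl (log2 -0.03, SE 0.09), whereas M1 and M2 lay below it (-0.31, SE 0.08, and -0.58, SE 0.12).

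By the edgeR call used for all genes, given here as a description and not as a test of the family, 1 of the 10 fitted identifiers was higher and 6 were lower in M1 than in Ctrl, where 70.2% of all tested genes were called (35.2% higher and 35.0% lower). In M2, 2 were higher and 6 lower, beside 66.5% of all genes (34.1% higher and 32.4% lower). In M0, 3 were higher and 6 lower, beside 61.7% of all genes (31.1% higher and 30.6% lower). RGS4 was chosen on these comparisons, so nothing is read from the counts. RGS7 was among the higher genes and RGS4, RGS12, RGS17 and the second RGS5 identifier among the lower genes in all 3. For M0 the count rested on single libraries: it was 4 without M0 replicate 2, and 5 without M0 replicate 3 and M2 replicate 2. In the latter setting 8211 in place of 8695 genes were called over the whole table. With 1 library left out at a time that number ran from 7891 to 9051. The median log2 fold change of the 10 was -0.38 in M1, -0.37 in M2 and -0.40 in M0, against 0.00, 0.02 and 0.00 for all tested genes. These medians include RGS4 and both RGS5 identifiers and come from the comparisons used for the choice, so nothing is read from them either.

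Whether polarization of the macrophages changed these genes was asked by comparing the conditioned media with each other, and here RGS4 fell further in M1 medium. It was 5.71-fold lower in M1 than in M0 (0.205 ± 0.108 against 1.17 ± 0.277 CPM, log2 -2.51, SE 0.37, edgeR adjusted p = 9.40e-06) and 3.72-fold lower in M1 than in M2 (0.205 ± 0.108 against 0.770 ± 0.116 CPM, log2 -1.90, SE 0.34, edgeR adjusted p = 0.000445). The M1 libraries did not overlap those of either other medium. Both calls were kept in 19 of 19 alternative settings, with adjusted p no higher than 0.000399 and 0.00374. RGS4 also passed the low-count filter with the conditioned groups alone, but only through its M2 or M0 libraries. The M1 libraries held 5, 5 and 12 reads and would not have passed by themselves, so the filter lends these calls no support. Without M1 replicate 3 the log2 fold changes were -3.02 and -2.41, and on the variance-stabilized scale, which compresses low counts, -1.37 and -0.97.

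Between M2 and M0 the RGS4 difference did not pass. The libraries did not overlap (0.814, 0.639 and 0.858 CPM in M2, 1.18, 0.885 and 1.44 CPM in M0), and the log2 fold change was -0.62 (SE 0.23, edgeR adjusted p = 0.0728). The adjusted p was 0.0454 with DESeq2 and 0.0344 without M0 replicate 2, and ranged from 0.0344 to 0.556 over 19 settings.

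RGS10 and RGS17 also fell in M1 against M0, so 3 of 10 tested identifiers fell, where 26.7% of all genes fell and 25.5% rose (52.2% in either direction). RGS10 averaged 29.9 ± 2.44 CPM in M1 and 39.6 ± 4.55 CPM in M0 (log2 -0.41, SE 0.12, edgeR adjusted p = 0.00935), and the adjusted p was 0.0549 without M0 replicate 2. RGS17 averaged 4.33 ± 0.701 CPM in M1 and 5.69 ± 0.479 CPM in M0 (log2 -0.40, SE 0.15, edgeR adjusted p = 0.0254). The RGS17 call held in 12 of 19 settings; it was lost when M0 replicate 1 or 3 or M1 replicate 1 or 2 was left out (adjusted p = 0.128, 0.0594, 0.0975 and 0.0967). It was also lost with M0 replicate 3 and M2 replicate 2 both left out (adjusted p = 0.0739). The same held with no low-count filter (adjusted p = 0.0696) and with only the groups compared (adjusted p = 0.0554). The other 7 identifiers did not pass, with log2 values between -0.48 and 0.18, though RGS3 (0.18) passed without M0 replicate 2 (0.28, adjusted p = 0.0473).

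In M1 against M2, RGS4 and RGS10, 2 of 10, fell, beside 16.6% of all genes that fell and 15.9% that rose (32.5% in either direction). RGS10 averaged 29.9 ± 2.44 CPM in M1 and 40.2 ± 2.40 CPM in M2 (log2 -0.43, SE 0.08, edgeR adjusted p = 0.0108). Without M1 replicate 3 the adjusted p of RGS10 was 0.0504, and the count was then 1. With M0 replicate 3 and M2 replicate 2 both left out it was 0.0622. RGS20 was higher in M1 than in M2 on average (5.96 ± 0.557 against 4.96 ± 0.712 CPM, log2 0.27, SE 0.14) but did not pass (edgeR adjusted p = 0.123), except with M0 replicate 3 and M2 replicate 2 both left out (log2 0.38, adjusted p = 0.0471).

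In M2 against M0, RGS3 rose and RGS20 fell, 2 of 10 identifiers, where 25.2% of all genes were called (12.5% rose and 12.7% fell). RGS3 averaged 30.9 ± 2.71 CPM in M2 and 23.4 ± 3.09 CPM in M0 (log2 0.40, SE 0.13, edgeR adjusted p = 0.0123). RGS20 averaged 4.96 ± 0.712 CPM in M2 and 7.24 ± 0.765 CPM in M0 (log2 -0.55, SE 0.15, edgeR adjusted p = 0.00727). The RGS3 call was lost without M0 replicate 3 (log2 0.31, adjusted p = 0.0788) or M2 replicate 2 (log2 0.33, adjusted p = 0.0682). With both of these libraries left out both calls were lost, with adjusted p = 0.252 for RGS3 and 0.0553 for RGS20 at log2 -0.55, and 520 in place of 3553 genes passed over the whole table.

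Asked jointly, 4 of 10 identifiers differed among M1, M2 and M0, beside 56.6% of all genes. The adjusted p of edgeR's test was 3.05e-05 for RGS4, 0.00697 for RGS20, 0.00956 for RGS10 and 0.0129 for RGS3, and RGS17 missed the threshold at 0.0539. RGS2, RGS5, RGS7, RGS12 and the second RGS5 identifier did not pass, with adjusted p between 0.172 and 0.644. With M0 replicate 3 and M2 replicate 2 left out the count was 2, beside 6066 in place of 7970 genes over the whole table. The share of RGS identifiers called was near or below that of all genes in each of these comparisons.

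**Figure D4:**
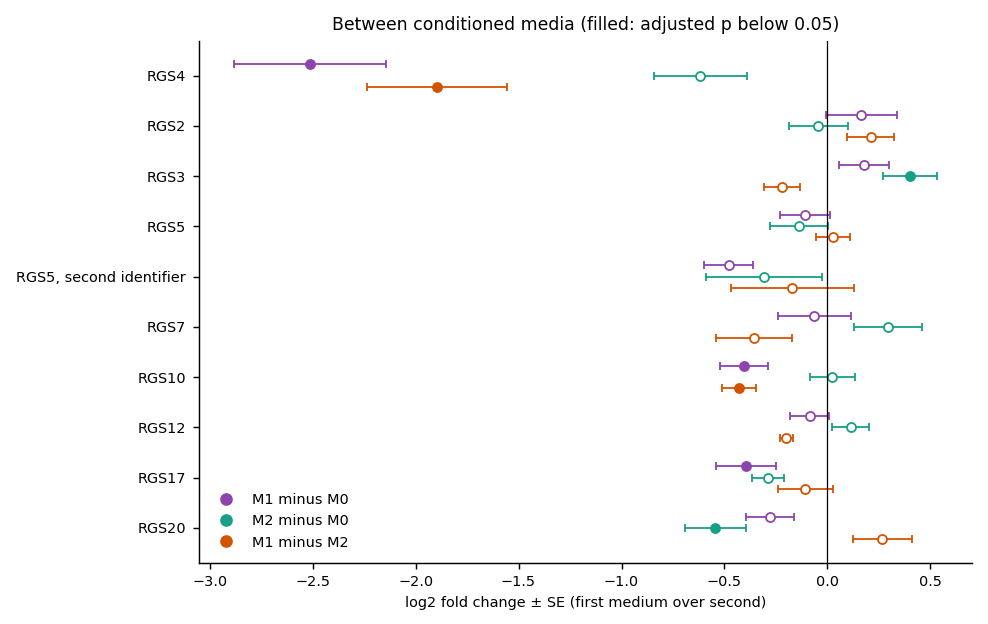
Log2 fold change (± SE) of 10 RGS identifiers between conditioned media, with filled points where the edgeR adjusted p was below 0.05. RGS4 lies at -2.51 for M1 over M0 and -1.90 for M1 over M2 (both filled) and at -0.62 for M2 over M0 (open), and no other identifier lies outside -0.55 to 0.40.

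The genes whose pattern came nearest to that of RGS4 were sought over all tested genes by the root mean square difference of log2 CPM, each gene centred on its own mean over the 12 libraries. CAVIN2, a coat protein of caveolae, was nearest at 0.743 log2 units, with 0.0915, 0.492, 0.928 and 16.02 CPM in M1, M2, M0 and Ctrl. The next were PCDH18, a protocadherin, at 1.21, PDE7B, a cAMP phosphodiesterase, at 1.28, TRIM55, a muscle-type ubiquitin ligase, at 1.33 and CPA4, a carboxypeptidase, at 1.33. Like RGS4, all 5 were lower in each conditioned library than in any Ctrl library. Mean levels were 0.0702, 0.128, 0.158 and 3.68 CPM for PCDH18 and 0.311, 0.747, 0.790 and 9.52 CPM for PDE7B, in the order M1, M2, M0 and Ctrl. TRIM55 had 0.328, 0.423, 1.22 and 8.80 CPM in these media, and CPA4 had 0.160, 0.954, 0.840 and 8.13 CPM, so CPA4 was not lower in M2 than in M0 on average. PCDH18 had 0 reads in M1 replicate 2 and 3 to 5 in the other conditioned libraries, so its pattern among the conditioned media lies at the limit of the depth.

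By the same measure the RGS relatives lay between 2.61 (the second RGS5 identifier) and 3.39 (RGS7) from RGS4. The 5 genes above were picked as the nearest, and the distance includes the difference from Ctrl for which RGS4 was chosen, so these distances are a description. Tested genes within 500 kb of RGS4 differed among themselves. DDR2, a collagen receptor, was higher in the conditioned media at 387, 509, 529 and 220 CPM in M1, M2, M0 and Ctrl, as was UAP1, an enzyme of amino sugar synthesis, at 589, 748, 787 and 376 CPM. HSD17B7, an enzyme of cholesterol synthesis, was lower at 0.714, 0.677, 0.876 and 3.19 CPM. CCDC190 was lower as well, with averages of 0, 0.0683, 0.0113 and 0.421 CPM, close to the limit of the depth.

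**Figure D5:**
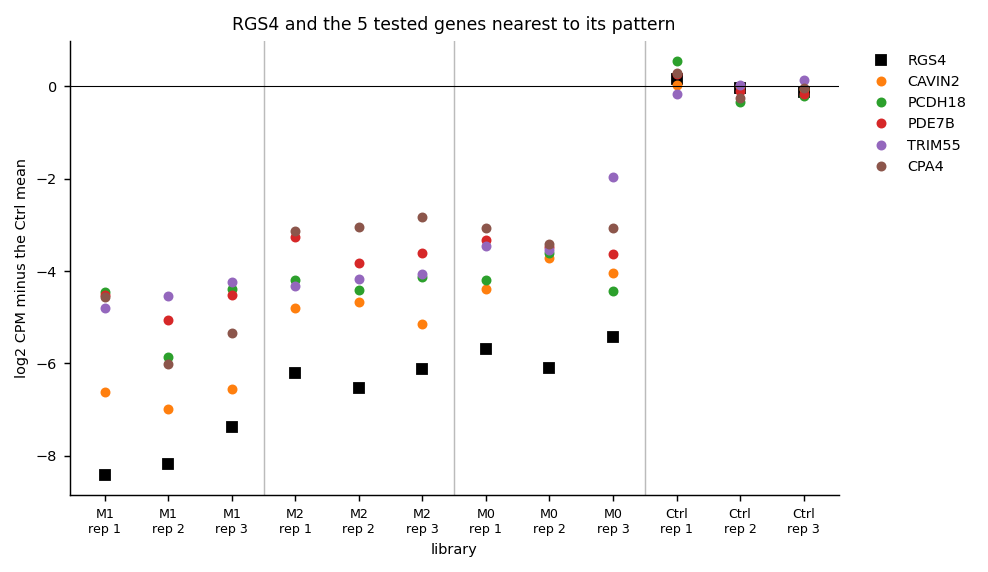
Log2 CPM minus the Ctrl mean for RGS4 (squares) and the 5 tested genes with the nearest pattern (circles) in each library of M1, M2, M0 and Ctrl. RGS4 lies at -8.41 to -7.37 in M1, -6.52 to -6.13 in M2 and -6.09 to -5.43 in M0, and CAVIN2 follows at -6.99 to -6.55, -5.14 to -4.67 and -4.38 to -3.71.

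The remaining genes of the pathway were counted from lists by role, with edgeR calls over all tested genes. The share of all genes called, against which each list's count stands, was 70.2% for M1, 66.5% for M2 and 61.7% for M0 against Ctrl, and 52.2% for M1 against M0. Of 11 other RGS-named genes, RGS9, RGS14 and RGS19 passed the low-count filter, and RGS1, RGS6, RGS8, RGS11, RGS13, RGS18, RGS21 and RGS22 did not. RGS19, another RZ member, had 9.06 ± 2.14 CPM in M1, 8.87 ± 0.495 CPM in M2, 6.53 ± 0.834 CPM in M0 and 14.6 ± 1.18 CPM in Ctrl, and it fell against Ctrl in all 3 conditioned media (log2 -0.68, -0.72 and -1.16, edgeR adjusted p at most 0.000553). RGS9, which like RGS7 pairs with GNB5, had 2.13 ± 0.376 CPM in M1, 1.24 ± 0.374 CPM in M2, 1.01 ± 0.0342 CPM in M0 and 2.25 ± 0.198 CPM in Ctrl. RGS9 fell in M2 and M0 (log2 -0.87 and -1.14 against Ctrl), while in M1 it overlapped Ctrl and stood 2.09-fold above M0 (log2 1.06, SE 0.15, edgeR adjusted p = 0.000882). RGS14 passed in M2 against M0 (log2 0.66, SE 0.26, edgeR adjusted p = 0.0418), a call that held in 11 of 19 settings. It was lost without M2 replicate 1 or 3, M0 replicate 1 or 3, M1 replicate 1 or Ctrl replicate 3 (adjusted p between 0.0523 and 0.202). The call was also lost with M0 replicate 3 and M2 replicate 2 both left out (log2 0.60, adjusted p = 0.193). In M0 against Ctrl RGS14 missed the threshold (log2 -0.53, edgeR adjusted p = 0.0511) and passed in 6 of 19 settings, with adjusted p down to 0.0131 without M0 replicate 2. In M1 against M0 it passed in 2 of 19, without M0 replicate 2 or without M1 replicate 2 (adjusted p = 0.0234 and 0.0291).

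Of 16 other proteins with an RGS domain 14 passed the filter. Against Ctrl, 4 rose and 4 fell in M1, 6 rose and 5 fell in M2, and 5 rose and 5 fell in M0, and between media 4 rose and 2 fell in M1 against M0. GRK5, a kinase that desensitizes receptors, fell in every conditioned medium, with 6.63 ± 1.28 CPM in M1, 5.27 ± 0.251 CPM in M2, 5.63 ± 0.523 CPM in M0 and 15.1 ± 0.541 CPM in Ctrl (log2 -1.18, -1.52 and -1.41, edgeR adjusted p at most 4.20e-07). AXIN1, the scaffold of the beta-catenin destruction complex, rose in each, to 77.4 ± 5.59 CPM in M1, 104 ± 2.22 CPM in M2 and 87.5 ± 1.45 CPM in M0, against 57.6 ± 4.92 CPM in Ctrl. ARHGEF11, a RhoA activator downstream of Gα12 and Gα13, rose in M1 and M2 (log2 0.66 and 0.67), and in M0 it did not pass (0.17, edgeR adjusted p = 0.116; 0.28 and adjusted p = 0.00444 without M0 replicate 3).

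Alpha subunits are the substrates of RGS proteins, and 10 of 13 passed the filter. Against Ctrl, 4 rose and 3 fell in M1, and 3 rose and 2 fell in both M2 and M0. Their median log2 fold change was 0.07 in M1, 0.09 in M2 and 0.05 in M0. GNAZ, which encodes Gz, fell in all 3 media, with 9.96 ± 1.53 CPM in M1, 12.8 ± 1.68 CPM in M2, 11.9 ± 1.43 CPM in M0 and 17.9 ± 0.681 CPM in Ctrl (log2 -0.84, -0.48 and -0.59). GNA13 rose in all 3 (log2 0.72, 0.48 and 0.56, edgeR adjusted p at most 9.85e-06). GNAO1 rose in M2 against Ctrl by log2 0.55 (edgeR adjusted p = 0.0381), a call lost with DESeq2 (adjusted p = 0.0609). It was also lost without Ctrl replicate 2 or 3, M0 replicate 1 or 2, or M2 replicate 2 or 3 (adjusted p between 0.0502 and 0.149). Of the 11 beta and gamma subunits that passed, out of 17, 2 rose and 7 fell in M1, 1 rose and 8 fell in M2, and 2 rose and 6 fell in M0 against Ctrl, with median log2 fold changes of -0.42, -0.66 and -0.26.

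Among the beta subunits, GNB5, the obligate partner of R7 proteins, fell while RGS7 was higher. It averaged 13.2 ± 1.51 CPM in M1, 11.6 ± 1.11 CPM in M2, 11.2 ± 0.598 CPM in M0 and 19.5 ± 0.264 CPM in Ctrl (log2 -0.56, -0.76 and -0.80, edgeR adjusted p at most 8.80e-05). GNB4 fell likewise, with 240 ± 14.4, 186 ± 4.49, 209 ± 21.3 and 320 ± 16 CPM in M1, M2, M0 and Ctrl. GNB3 fell by 1.35, 1.05 and 2.94 on the log2 scale in M1, M2 and M0, but Ctrl replicate 1 stood at 6.35 CPM beside 2.11 and 2.47 CPM in the other Ctrl libraries. Without it the GNB3 values were -0.65, -0.37 (adjusted p = 0.223) and -2.26, and the M2 call was also lost without M2 replicate 1 (-0.99, adjusted p = 0.0553). GNB3 shares 549 exon bases with CDCA3, a cell cycle gene on the opposite strand at 11.8, 17.4, 33.4 and 97.5 CPM in M1, M2, M0 and Ctrl, and the part of its reads in the GNB3 counts was not tested.

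Of 19 effectors 7 passed the filter, and against Ctrl 3 rose and 3 fell in M1, 3 rose in M2, and 1 rose and 2 fell in M0. ADCY6 and ADCY9 are adenylyl cyclases, which Gi inhibits. ADCY6 rose in M1 and M2, to 25.0 ± 2.24 and 25.0 ± 2.74 CPM, against 16 ± 1.71 CPM in M0 and 15.6 ± 1.89 CPM in Ctrl, while ADCY9 fell in M0 to 40.2 ± 6.65 CPM, against 63.5 ± 10.2 CPM in Ctrl. The ADCY6 call for M2 against M0 was lost without M0 replicate 3 and M2 replicate 2 (adjusted p = 0.0569). PLCB2, a phospholipase C driven by Gq and beta-gamma subunits, rose in each medium (log2 0.40, 0.84 and 0.56 in M1, M2 and M0 against Ctrl).

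Receptors coupled to Gi or Gq signal through the alpha subunits that R4 proteins switch off. Of 39 genes 18 passed the filter, and 9 rose and 2 fell in M1 against M0, where 25.5% of all genes rose and 26.7% fell, with a median log2 fold change of 0.46 beside -0.01 for all genes. Against Ctrl, 7 rose and 8 fell in M1 (70.2% of all genes called), 4 rose and 10 fell in M2 (66.5%), and 2 rose and 10 fell in M0 (61.7%). F2RL1, the protease-activated receptor PAR2, rose in M1, with 68.8, 58.6 and 65.2 CPM in M1, 18.4, 16.5 and 18.0 CPM in M2, 18.2, 17.9 and 17.3 CPM in M0 and 23.4, 15.2 and 16.5 CPM in Ctrl. The M1 libraries stood clear of all others (M1 against M0, log2 1.85, SE 0.07, edgeR adjusted p = 1.70e-08). LPAR2, a receptor for lysophosphatidic acid, was 5.21-fold higher in M1 than in M0 (1.78 ± 0.0792 against 0.344 ± 0.147 CPM, edgeR adjusted p = 1.88e-05). In M2, LPAR2 averaged 1.28 ± 0.340 CPM, 3.68-fold above M0 (edgeR adjusted p = 0.00178). M1 against M2 did not pass (edgeR adjusted p = 0.132). Ctrl averaged 0.994 ± 0.269 CPM, so LPAR2 was lower in M0 than in Ctrl (edgeR adjusted p = 0.000886). M1 was 1.76-fold above Ctrl (edgeR adjusted p = 0.00812). BDKRB1, the inducible bradykinin receptor, fell in all conditioned media, with 2.81 ± 1.01 CPM in M1, 0.430 ± 0.133 CPM in M2, 2.00 ± 0.240 CPM in M0 and 10.4 ± 0.950 CPM in Ctrl (log2 -1.87, -4.56 and -2.37).

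Of 11 arrestins and other G protein regulators 10 passed, and 5 rose and 3 fell in M1 against M0. ARRB2, an arrestin that uncouples receptors from G proteins, fell in M1 to 13.8 ± 1.82 CPM, against 34.7 ± 3.66 CPM in M0 (log2 -1.33, SE 0.14, edgeR adjusted p = 1.64e-07). It had 27.4 ± 1.65 CPM in M2 and 32.7 ± 3.19 CPM in Ctrl. GPSM3, a GoLoco protein that binds Gi, rose in M1 to 3.99 ± 0.805 CPM, against 1.97 ± 0.888 CPM in M0 (edgeR adjusted p = 0.00265). GPSM2, a GoLoco protein of spindle orientation, fell in every medium, with 14.9 ± 2.22 CPM in M1, 16.7 ± 0.623 CPM in M2, 29.5 ± 7.93 CPM in M0 and 60.8 ± 3.40 CPM in Ctrl. GPSM2 shares 2801 exon bases with CLCC1 on the opposite strand, which had 64.8, 55.5, 54.9 and 64.8 CPM in these media, so its counts are uncertain.

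The cysteine N-degron pathway removes RGS4, RGS5 and RGS16 proteins after methionine aminopeptidases, cysteine oxidation and arginylation have exposed their start. All 8 listed genes passed the filter. Against Ctrl 5 rose and 3 fell in M1, 4 rose and 3 fell in M2, and 5 rose and 3 fell in M0, where 70.2%, 66.5% and 61.7% of all genes were called. ATE1, the arginyl transferase, rose to 73.4 ± 5.12 CPM in M1, 75.8 ± 0.694 CPM in M2 and 76.7 ± 2.75 CPM in M0, against 44.3 ± 3.90 CPM in Ctrl (edgeR adjusted p at most 2.55e-07). UBR1, a ubiquitin ligase that reads the arginine, fell (log2 -0.64, -0.93 and -0.76 in M1, M2 and M0), as did METAP2, a methionine aminopeptidase (-0.72, -0.60 and -0.48). Genes of different steps of the pathway differed in opposite directions.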

How the data were processed

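Stranded mRNA libraries of 12 MV3 samples (3 each of M1, M2, M0 and Ctrl) were read from 1 end (50 nt) in 2 runs, per the labels' protocols. Per the submitters' processing notes, STAR 2.5.4b and Bowtie2 2.2.3 were used (roles not given), beside Trimmomatic 0.36 and FastQC 0.11.7, DESeq2 1.20.0 under R, and build hg38. How reads were assigned to genes (tool, strand, annotation) is not given in the sources used here. Here the authors deposited raw read counts for 58288 gene identifiers, and the per-sample count files equalled this table in 12 of 12 cases. The authors also deposited variance-stabilized values on a log2 scale (3.22 at a count of 0), used for gene names and for an alternative test.

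Counts of all 12 libraries were fitted with edgeR 4.0.16 in R 4.3.3 as 4 group means after filterByExpr (minimum count 10, minimum total 15; 14088 genes left) and TMM scaling, the quasi-likelihood F test and Benjamini-Hochberg adjustment over all tested genes at 0.05. The common biological coefficient of variation was 0.0831. The fit was tested on simulated data. CPM used TMM-scaled library sizes, and levels per kb used exon unions of GENCODE release 29 on GRCh38, which matched 58025 identifiers. Fold changes come from the fit, while each SE is taken from log2 CPM (prior count 2) over 3 and 3 libraries, another estimate. Ratios of low reads have exact 95% intervals.

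Groups and replicate numbers came from the labels, which do not say that replicates were separate cultures, so p-values reflect only how these samples vary, and that may be technical. No replicate pair was within sampling noise (chi-square per degree of freedom 3.18 to 28.1). Alternatives were DESeq2 1.42.0, its size factors in edgeR, no filter, limma 3.58.1 on the deposited log2 values, only the groups compared, a replicate block, each library left out, and M0 replicate 3 with M2 replicate 2 left out. The members and lists were chosen with earlier results of these data known. Named genes were all members, up to 3 called genes per list with the largest absolute log2 fold change in any comparison whose higher group reached 1 CPM, and the 5 tested genes nearest to RGS4 in pattern.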

Additional observations from a re-analysis of the deposited data

How the results depend on the processing

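No RGS value changed direction past the threshold under any alternative tried. Of 570 member values between conditioned media, called or not, 552 stayed on the same side of the threshold, 14 lost a call and 4 gained one; of 2736 values of named pathway genes 98 lost and 52 gained one. With M0 replicate 3 and M2 replicate 2 both left out, M2 against M0 had 520 genes, 5 pathway genes and 0 of 10 RGS identifiers called. In that setting M0 against Ctrl had 8211 genes and 5 RGS identifiers called, and the joint test 6066 genes and 2 RGS identifiers. limma on the variance-stabilized values gave RGS4 -6.64, -5.66 and -5.27 in M1, M2 and M0 against Ctrl; its scale compresses low counts. Leaving out 1 library at a time gave RGS4 -8.79 to -7.98 in M1, -6.45 to -6.27 in M2 and -5.95 to -5.64 in M0 against Ctrl. Genes called then ran from 6252 to 7818 (M1 against M0), 1595 to 4210 (M2 against M0), 3341 to 5123 (M1 against M2), 9400 to 10111 (M1 against Ctrl), 8659 to 9696 (M2 against Ctrl), 7891 to 9051 (M0 against Ctrl) and 6757 to 8570 (joint). Of the 10 RGS identifiers, the number called ran, in that order, from 2 to 3, 1 to 3, 1 to 2, 6 to 7, 7 to 9, 4 to 9 and 3 to 5. Pathway genes called ran from 32 to 42, 10 to 29, 25 to 34, 55 to 62, 53 to 59 and 49 to 56. The lowest M2 against M0 count of genes came without M0 replicate 3, with 1933 without M2 replicate 2 and 1905 without M2 replicate 3. Deviations of same-numbered replicates from their group means had correlations of -0.274 to 0.373, with 0.34, 0.33 and 0.08 for M1 against M2. With 3 libraries per group these cannot decide whether the numbers pair samples. With a replicate block, RGS identifiers called were 3, 2, 2, 7, 8 and 9 in the order above and 5 in the joint test, and genes called were 7453, 3714, 4752, 9943, 9439, 8741 and 8069. Depth limits RGS4 in M1 and RGS16 in all media.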
